A study of Saccharomyces cerevisiae with 6 samples.

Results

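The genes described here encode 10 components of the yeast pheromone signalling pathway, GPA1, STE4, STE18, STE5, STE11, STE7, FUS3, STE12, FAR1 and SST2, out of 5449 Saccharomyces cerevisiae genes with a measured signal. They were chosen by name, through the array's gene annotation, and each of the 10 had 1 probe set, the group of short probes that reports on a gene. The study set the nab2-1 mutant against a wild type strain on Affymetrix arrays, with 3 samples and 1 array per sample in each group. In the mutant the chromosomal NAB2 gene was replaced with HIS3, and the nab2-1 allele came on a centromeric plasmid marked with LEU2; the wild type was W303-1A, the parent background of both groups. Both were grown exponentially in rich YPD medium at 30 °C, and cRNA was made from 1 ug of total RNA. Nab2, the product of NAB2, binds the poly(A) tails of mRNAs in the nucleus, takes part in their export and is needed for growth. Whether the mutant was 1 clone, and whether each sample was grown on its own, is not stated in the labels, and the p-values therefore reflect sample-to-sample spread that may be purely technical.

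In haploid yeast, a mating pheromone from the opposite mating type binds a receptor at the cell surface and releases the G beta-gamma dimer, Ste4 and Ste18, from the G alpha subunit Gpa1. The freed dimer brings the scaffold Ste5 to the membrane, where the kinases Ste11, Ste7 and Fus3 act in sequence. Fus3 then acts on the transcription factor Ste12, which turns on mating genes, and on Far1, which arrests the cell cycle and helps to orient growth towards the partner. Sst2, a GTPase-activating protein for Gpa1, ends the signal. Each gene's signal is given on the log2 scale, and a difference is the mean signal in nab2-1 minus that in the wild type ± SE (3 arrays per group). Each adjusted p comes from limma with Benjamini-Hochberg adjustment over all 5449 genes, and a gene passed when it was under 0.05.

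Of the 10 pathway genes, 6 rose in nab2-1 (STE4, STE11, STE7, FUS3, STE12 and SST2), 1 fell (FAR1), and 3 did not pass the threshold (GPA1, STE18 and STE5). The largest rises, those of SST2 and STE12, were 1.49-fold and 1.46-fold. Among all genes tested, 67.4% passed, 30.2% as higher and 37.2% as lower. Among the 4642 genes on the 13 chromosomes other than I, XI and XVI, where all 10 pathway genes lie, 63.0% passed, 19.8% as higher and 43.2% as lower. The arrays of the groups did not overlap for 8 of the 10 genes, against 73.9% of all genes and 70.4% of genes on those 13 chromosomes. For 7 of the 10, all nab2-1 arrays lay above all wild type arrays, against 32.8% of all genes and 22.7% of genes on those chromosomes. Thus the share of pathway genes that differed at all was near the background, and the share that was higher in nab2-1 was above it. Of the 10 genes, 0 passed with a change of at least 2-fold, against 9.87% of all genes tested. The median difference over the 10 genes was 0.21, beside -0.05 over all genes tested and -0.11 over the genes of those 13 chromosomes. Set against the wild type means, the median over the 10 genes was 0.22, 0.15 and 0.28 on the 3 nab2-1 arrays, beside -0.02, 0.01 and -0.02 on the 3 wild type arrays.

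**Figure D1:**
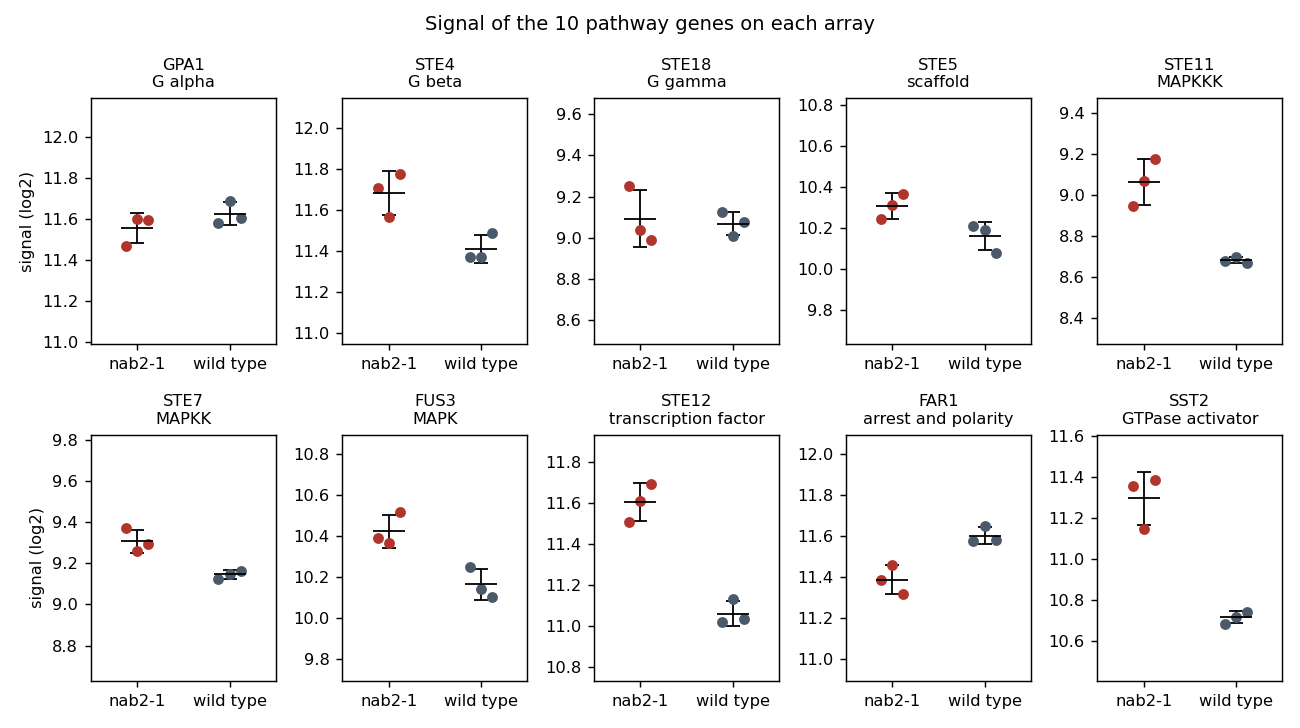
Signal (log2) of each of the 10 pathway genes on the 3 nab2-1 arrays (left of each panel) and the 3 wild type arrays (right); points are arrays, horizontal lines are group means and bars are SD. Every panel spans the same height on the log2 scale, and SST2 and STE12 show the widest gaps between groups, while the points of GPA1 and STE18 overlap.

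Facts of the whole array set bear on these values. Pearson correlations between arrays over the tested genes were 0.994 to 0.998 within a group and 0.940 to 0.947 between groups. NAB2 itself had a signal of 13.71 ± 0.12 in nab2-1 and 12.36 ± 0.07 in the wild type (SD, n = 3 each), and since the place of its probes relative to the lesion is unknown here, this does not check the labels. The median difference was 0.73 on chromosome I, 0.77 on XI and 0.75 on XVI, and between -0.14 and -0.08 on each of the other 13 chromosomes. So a gene's difference is also given below relative to the median of its own chromosome where that changes the reading. Scaling the arrays to spiked bacterial controls moved the median of all genes from -0.05 to 0.19, and turned the split of all calls from 1644 higher and 2028 lower into 2153 higher and 760 lower. Those controls had mean signals of 6.53 to 6.61 on the nab2-1 arrays, against 6.67 to 6.98 on the wild type arrays, and how much was added to each sample is unknown here. Any error in a control mean shifts all genes of that array together. The fit treats genes as independent, so adjusted p-values on this scale can be too small.

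The mating type of the cells was checked against marker genes, since pathway genes are expressed in haploid cells and receptors and pheromones in one mating type each. W303-1A is known as a MATa strain, but the labels give no mating type. All 4 genes that mark MATalpha cells gave strong signals on every array. Their lowest value was 12.62 in nab2-1, against 12.15 in the wild type, and the lowest of all lay 7.88 above 4.27, a level taken from probe sets of another yeast on the array that have no target RNA here. MF(ALPHA)1, the main alpha-factor gene, had signals of 14.15, 14.14 and 14.10 in nab2-1 and 13.90, 13.86 and 13.96 in the wild type. The 7 genes that mark MATa cells ranged from 6.91 to 10.16 in nab2-1, against 6.37 to 9.21 in the wild type, and 0 of them were at the level of probe sets without target. The MATalpha genes thus go against a MATa strain on the arrays of both groups. The mean log2 signal of the 7 MATa genes was 8.86 to 9.05 in nab2-1, against 7.60 to 7.69 in the wild type. That of the 4 MATalpha genes was 13.15 to 13.22 in nab2-1, against 12.92 to 12.96 in the wild type. The 4 did not move as 1 group. MF(ALPHA)2, a second alpha-factor gene, rose by 0.48 ± 0.09 (adjusted p = 0.0023), while SAG1, the alpha-agglutinin gene, fell by 0.18, with an SE of 0.04 (adjusted p = 0.0084), and was at 0.07 without passing on the scale of the spiked controls. MF(ALPHA)1 and STE3, the a-factor receptor gene, rose by 0.22 ± 0.05 (adjusted p = 0.0052) and 0.42 ± 0.05 (adjusted p = 0.00023). Against the median of its own chromosome, MF(ALPHA)1 on XVI was at -0.53 and STE3 on XI at -0.34. Relative to chromosome medians, 1 of the 4 was thus higher and 2 were lower, with a median of -0.20. On that scale 29.6% of all genes were higher and 31.8% lower. Which cells the RNA came from, and the part of mating type in the differences below, was not tested. In RNA from whole cultures, a change in the number of cells of a type and a change in RNA per cell cannot be told apart.

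**Figure D2:**
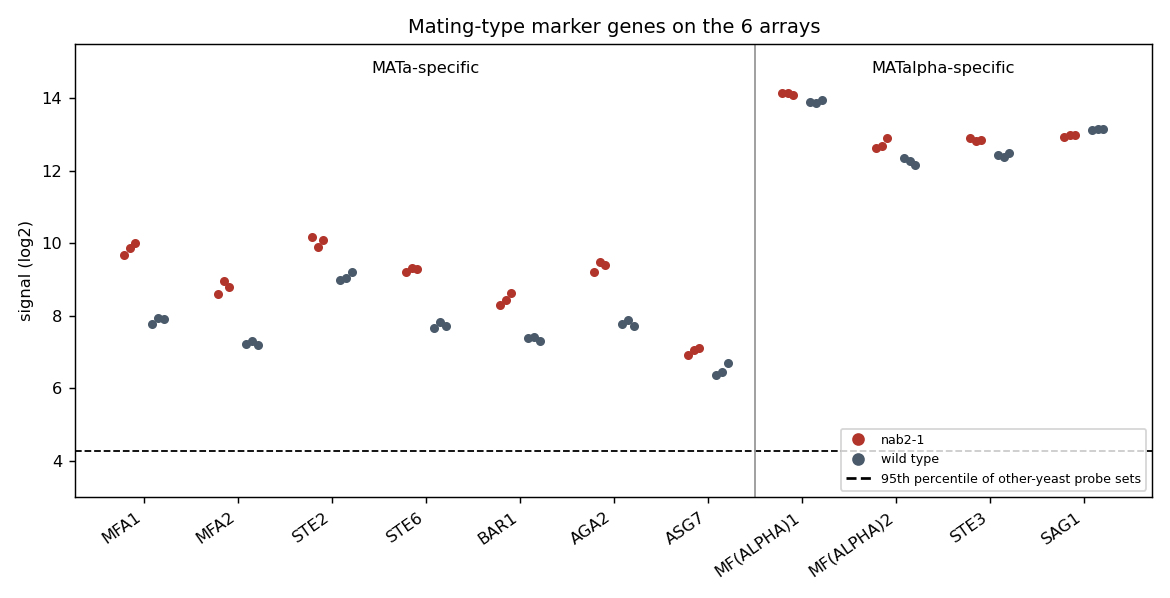
Signal (log2) of the 7 MATa-specific genes (left of the vertical line) and the 4 MATalpha-specific genes (right) on the 3 nab2-1 arrays and the 3 wild type arrays; points are arrays, and the dashed line at 4.27 is the 95th percentile of probe sets of the other yeast. All 11 genes lie above the line on all 6 arrays, but only 51 of the 5449 tested genes had a mean under it. The MATalpha genes lie between 12.15 and 14.15.

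Among the heterotrimeric G protein genes, that of the beta subunit rose while those of the alpha and gamma subunits did not pass the threshold. STE4, which encodes the beta subunit that carries the signal onward, had signals of 11.70, 11.57 and 11.77 in nab2-1 and 11.37, 11.37 and 11.49 in the wild type. All 3 nab2-1 values lay above the wild type ones, a rise of 0.27 ± 0.07 or 1.21-fold (adjusted p = 0.0090). GPA1, the alpha subunit gene that holds the pathway off, had signals of 11.47, 11.60 and 11.60 in nab2-1 and 11.58, 11.69 and 11.61 in the wild type. These ranges overlapped, and the difference of -0.07 ± 0.06 did not pass (adjusted p = 0.30), with a 95% interval from -0.21 to 0.06. STE18, the gamma subunit gene, had signals of 9.25, 9.04 and 8.99 in nab2-1 and 9.12, 9.01 and 9.07 in the wild type. The spread among the nab2-1 arrays, with an SD of 0.14, was wider than the difference of 0.02 ± 0.08 (adjusted p = 0.80), and the 95% interval ran from -0.16 to 0.20. The differences of GPA1 and STE18 were near 0 and changed sign between settings.

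Whether the subunits moved apart was read from the log2 ratio of a pair within each array, which a constant shift of an array does not affect. The ratios were not recomputed under normalizations that depend on signal level. Levels of different probe sets cannot be compared, so only the change of a ratio between groups is used. The log2 ratio of STE4 to GPA1 was 0.24, -0.03 and 0.18 in nab2-1 and -0.21, -0.32 and -0.12 in the wild type. It did not overlap between groups and was 0.34 higher in nab2-1, a 1.27-fold change of the ratio. That of STE4 to STE18 was 2.45, 2.53 and 2.78 in nab2-1 and 2.24, 2.36 and 2.41 in the wild type, 0.25 higher in nab2-1. A two-sided exact permutation test gave p = 0.1 for both ratios, which is the smallest value that 3 arrays against 3 allow, and adjusted p = 0.1 over the 4 ratios computed here. All 4 pairs were picked after their values were seen, so these p-values carry no weight, and the adjustment does not cover pairs that were not picked.

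In the kinase cascade, the genes of all 3 kinases rose, while that of the scaffold just missed the threshold. STE11, the kinase at the head of the cascade, had signals of 8.95, 9.07 and 9.17 in nab2-1 and 8.68, 8.70 and 8.67 in the wild type. This was the largest rise in the cascade, 0.38 ± 0.06 or 1.30-fold (adjusted p = 0.0013), and the nearest values of the groups were 8.95 in nab2-1 and 8.70 in the wild type. STE7, whose product is activated by Ste11 and activates Fus3, had signals of 9.37, 9.26 and 9.29 in nab2-1 and 9.13, 9.15 and 9.17 in the wild type. Its rise was small, 0.16 ± 0.05 or 1.12-fold (adjusted p = 0.019), and without wild type replicate 1 it was 0.15 and did not pass (adjusted p = 0.067). FUS3, the mating-specific MAP kinase gene, had signals of 10.39, 10.36 and 10.52 in nab2-1 and 10.25, 10.14 and 10.11 in the wild type. The groups did not overlap, and the rise was 0.26 ± 0.06 or 1.20-fold (adjusted p = 0.0081). STE5, the scaffold that holds the 3 kinases together, had signals of 10.24, 10.31 and 10.37 in nab2-1 and 10.21, 10.19 and 10.08 in the wild type. Its groups were separated by a narrow gap, and the difference of 0.15 ± 0.06 did not pass (adjusted p = 0.057; 95% interval 0.01 to 0.28). STE5 passed in 8 of 14 alternative settings, among them quantile normalization, at 0.16 (adjusted p = 0.035), and the median of chromosome IV as the scale, at 0.25 (adjusted p = 0.0068). Over all 14 its adjusted p ran from 0.0068 to 0.11, and it passed in 1 of the 6 settings that left out an array, without nab2-1 replicate 1, at 0.18 (adjusted p = 0.034).

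KSS1 encodes a second MAP kinase that Ste7 also activates and that serves the filamentous growth pathway as well. It fell in nab2-1, with signals of 8.44, 8.60 and 8.61 in nab2-1 and 8.86, 8.78 and 8.95 in the wild type, a difference of -0.31 ± 0.07 (adjusted p = 0.0046). Scaled to the spiked controls this difference was -0.07 and did not pass. The log2 ratio of FUS3 to KSS1 was 1.94, 1.76 and 1.90 in nab2-1 and 1.39, 1.36 and 1.16 in the wild type. The ratio was 0.57 higher in nab2-1, or 1.48-fold, with no overlap between groups (two-sided exact permutation p = 0.1, the smallest possible, and adjusted p = 0.1 over 4 ratios). This pair joins a gene that rose with a gene that fell and was picked after its values were seen, so the p-value carries no weight.

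Below the cascade, the genes of the transcription factor and of the GTPase-activating protein rose most, and that of the cell cycle inhibitor fell. STE12, the factor that binds the promoters of mating genes, had signals of 11.51, 11.61 and 11.69 in nab2-1 and 11.02, 11.13 and 11.03 in the wild type. The lowest nab2-1 value was well above the highest wild type value, and the rise was 0.54 ± 0.06 (adjusted p = 0.00018). SST2, which desensitises cells to pheromone, had signals of 11.36, 11.15 and 11.39 in nab2-1 and 10.69, 10.72 and 10.75 in the wild type. Its rise of 0.58 ± 0.07 was the largest of the 10 genes (adjusted p = 0.00023), although its arrays spread more in nab2-1 (SD 0.13) than in the wild type (SD 0.03). FAR1, whose product inhibits the G1 cyclin kinase, had signals of 11.39, 11.46 and 11.32 in nab2-1 and 11.57, 11.65 and 11.58 in the wild type. All nab2-1 values lay under the wild type ones, and FAR1 fell by 0.22, with an SE of 0.05 (adjusted p = 0.0093). Relative to the median of chromosome X the difference of FAR1 was -0.09 and did not pass (adjusted p = 0.17). With the spiked controls as the scale it was 0.03 (adjusted p = 0.87), so the fall of FAR1 depended on the scaling. The log2 ratio of STE12 to FAR1 was 0.12, 0.15 and 0.38 in nab2-1 and -0.56, -0.52 and -0.55 in the wild type. That ratio was 0.76 higher in nab2-1, or 1.69-fold (two-sided exact permutation p = 0.1, the smallest possible, and adjusted p = 0.1 over 4 ratios). The pair joins a gene that rose with the 1 component that fell. It was picked after its values were seen, so the p-value carries no weight.

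The genes were then grouped by what is known of their own control. GPA1, FUS3, STE12, FAR1 and SST2 are known to be induced by pheromone themselves, and among these 3 rose, 1 fell and 1 did not pass. Over the 13 chromosomes other than I, XI and XVI, 19.8% of genes rose and 43.2% fell. GPA1, STE4, STE18, STE5 and FUS3 are known to be repressed in a/alpha diploid cells, and among these 2 rose and 3 did not pass, beside the same shares. A further 5 genes with that haploid-specific control moved in both directions, 2 higher and 3 lower. Of all genes tested, 30.2% were higher and 37.2% lower. For all 5 the groups did not overlap, as was so for 73.9% of all genes. HO, the mating-type switching endonuclease gene, fell to 8.18, 8.22 and 8.32 in nab2-1, against 10.58, 10.60 and 10.66 in the wild type, a difference of -2.37 ± 0.06 (adjusted p = 4.4e-07). RME1, a repressor gene of entry into meiosis, fell by 0.96, with an SE of 0.06 (adjusted p = 9.7e-06), and NEJ1, a gene of non-homologous end joining, fell by 0.28, with an SE of 0.06 (adjusted p = 0.0040). The difference of NEJ1 was -0.04 with the spiked controls as the scale and did not pass. AXL1, a protease gene of a-factor maturation and axial budding, rose by 1.53 ± 0.06 (adjusted p = 1.2e-06). Relative to the median of chromosome XVI, where it lies, AXL1 was at 0.78. RDH54, a recombination gene, rose by 0.27 ± 0.07 (adjusted p = 0.0097).

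Differences of the pathway genes were set against those of their neighbours, the 5 nearest tested genes on each side along the chromosome. STE11, FUS3, STE12 and SST2 each had a larger difference than all 10 of their neighbours. These genes had already been called higher, and the share of all genes that exceed their 10 neighbours was not computed. The highest neighbour was at 0.22 for STE11, 0.16 for FUS3, 0.50 for STE12 and 0.36 for SST2. STE5 and STE7 were each exceeded by 1 neighbour. The difference of STE4 was exceeded by 4 of 10 neighbours, and those of GPA1 and STE18 by 4 and 5. FAR1 lay under 6 of its neighbours, which ranged from -2.20 to 1.21. The neighbour medians ran from -0.39 around STE11 to 0.04 around STE12.

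**Figure D3:**
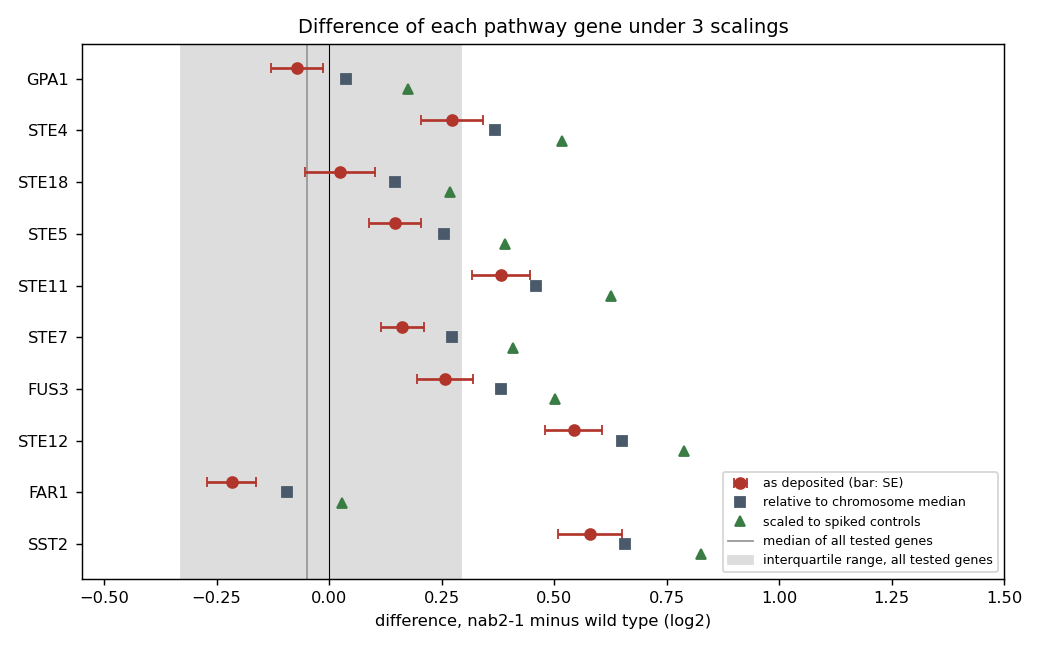
Difference of each pathway gene, nab2-1 minus wild type (log2), as deposited with its SE (circles), relative to the median of its chromosome (squares) and scaled to the spiked controls (triangles); the grey band is the interquartile range of all tested genes as deposited, from -0.33 to 0.29, and the grey line is their median. STE11, STE12 and SST2 lie to the right of the band as deposited, and GPA1 and FAR1 change sign between scalings.

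Both scalings raised all 10 differences together, by the shift of the chromosome or of the array. Relative to chromosome medians, 7 of the 10 genes were higher and 0 lower, and their median was 0.32, where 29.6% of all genes were higher and 31.8% lower. Scaled to the spiked controls, 7 were also higher and 0 lower, with a median of 0.46, where 39.5% of all genes were higher and 13.9% lower. Calls on that scale carry the shared error of the control means. In both settings STE5 joined the higher genes and FAR1 no longer passed.

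Other genes of the pathway spanned a wider range of differences, from -0.68 to 1.98. Of 19 such genes, 13 rose and 4 fell, where 30.2% of all genes rose and 37.2% fell, and the median difference was 0.42. Of these 19, 4 lie on chromosomes I, XI and XVI, and among the other 15 genes 9 rose and 4 fell, where 19.8% of genes on the other chromosomes rose and 43.2% fell, and the median was 0.15. Scaled to the spiked controls, 14 of the 19 were higher and 1 lower, where 39.5% of all genes were higher and 13.9% lower. On the side of the ligands and receptors all 6 genes rose. MFA1 and MFA2, the a-factor precursor genes, rose by 1.98 ± 0.09 (3.94-fold, adjusted p = 2.6e-06) and 1.54 ± 0.09. STE6, the a-factor exporter gene on chromosome XI, rose by 1.53 ± 0.06 and was at 0.77 relative to that chromosome. BAR1, a protease gene that degrades alpha-factor, rose by 1.09 ± 0.09. In the wild type, MFA1, MFA2, STE6 and BAR1 were dim, at percentiles 9.9, 7.1, 9.2 and 7.5 of mean signal over all genes. STE2 and STE3 were at percentiles 21.7 and 88.8. STE2, the receptor gene for alpha-factor, had signals of 10.16, 9.90 and 10.08 in nab2-1 and 8.98, 9.05 and 9.21 in the wild type. The rise of STE2 was 0.97 ± 0.09 (adjusted p = 5.3e-05). STE3 also rose as deposited, but was at -0.34 relative to the median of chromosome XI (adjusted p = 0.00094). These 6 genes are mating-type markers too, and 5 of them are among the 7 MATa markers described above. All 7 rose, where 30.2% of all genes rose. Of the 7, 6 lie off chromosomes I, XI and XVI, where 19.8% of genes rose.

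Between the G protein and the cascade, changes went both ways. STE20, the kinase that activates Ste11, fell by 0.31, with an SE of 0.06 (adjusted p = 0.0023), and was at -0.07, without passing, when scaled to the spiked controls. STE50, an adaptor of Ste11, and CDC42, the small GTPase that recruits Ste20, rose by 0.15 ± 0.05 (adjusted p = 0.025) and 0.16 ± 0.05 (adjusted p = 0.018). CDC24, the exchange factor gene of Cdc42, rose by 1.03 ± 0.05, but it lies on chromosome I and was at 0.30 relative to that chromosome (adjusted p = 0.0013). BEM1, a polarity scaffold gene, differed by 0.09 ± 0.06 and did not pass (adjusted p = 0.24). The calls of STE50 and CDC42 were lost when single arrays were left out, with adjusted p up to 0.084 for STE50 without nab2-1 replicate 3 and up to 0.058 for CDC42 without the same array.

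Genes that restrain the pathway differed from one another, and TEC1, a partner of Ste12 rather than a restraint, is given with them. PTP2, a tyrosine phosphatase gene known chiefly for acting on the MAP kinases of other pathways, had signals of 12.09, 12.15 and 12.30 in nab2-1 and 10.56, 10.75 and 10.50 in the wild type. Its rise of 1.58 ± 0.08, or 2.99-fold, was the largest among the restraining genes (adjusted p = 4.4e-06), and PTP2 is also the highest of the neighbours of STE4. MSG5, a phosphatase gene for Fus3, rose by 0.46 ± 0.08 (adjusted p = 0.0013), whereas PTP3, another phosphatase gene for Fus3, fell by 0.51, with an SE of 0.05 (adjusted p = 6.0e-05). DIG1, a repressor gene of Ste12, rose by 0.81 ± 0.06, but on chromosome XVI this left 0.06 relative to the chromosome median (adjusted p = 0.45). DIG2, the other repressor gene, differed by -0.03 ± 0.06 (adjusted p = 0.70). TEC1, the partner of Ste12 at filamentation genes, rose by 0.15 ± 0.04 (adjusted p = 0.020), a call lost in 4 of the 6 settings that left out an array, with adjusted p up to 0.068 without nab2-1 replicate 3. AKR1, a palmitoyltransferase gene that restrains basal signalling, fell by 0.68, with an SE of 0.05 (adjusted p = 2.5e-05). Scaled to the spiked controls PTP3 was at -0.26 and did not pass, and AKR1 was the 1 gene of the 19 still called lower.

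Listed genes that the pathway turns on were higher almost throughout, but this list, like the others, was drawn up with earlier results of these data known. Of 18 pheromone-induced genes, 17 rose and 0 fell, where 30.2% of all genes rose and 37.2% fell, and the median difference was 0.69. Of these, 4 lie on chromosomes I and XVI, and among the other 14 genes 13 rose, against 19.8% of genes on those chromosomes, with a median of 0.54. Relative to chromosome medians 16 of the 18 were higher and 0 lower, where 29.6% of all genes were higher and 31.8% lower. The largest differences were those of PRM3, a nuclear envelope gene of karyogamy (2.38 ± 0.12), PRM9 (2.25 ± 0.07), PRM4 (1.85 ± 0.06), FIG1, a membrane protein gene of mating projections (1.81 ± 0.10), PRM6 (1.35 ± 0.11) and PRM5 (1.14 ± 0.07). Relative to the medians of their chromosomes, PRM3 and PRM4 (both on XVI) were at 1.63 and 1.10, and PRM9 (on I) at 1.51. In the wild type, PRM3, PRM9, FIG1 and PRM6 were dim, at percentiles 9.7, 9.7, 8.3 and 6.3 of mean signal over all genes. PRM4 and PRM5 were at percentiles 26.3 and 59.0. CIK1, a kinesin partner gene of karyogamy, was the 1 gene that did not pass, with a difference of -0.12 ± 0.06 (adjusted p = 0.12), and is named here after its value was seen. The 7 MATa markers rose as well, beside 30.2% of all genes, whereas the 4 MATalpha markers went both ways as given above. The part of either in this list was not tested.

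**Figure D4:**
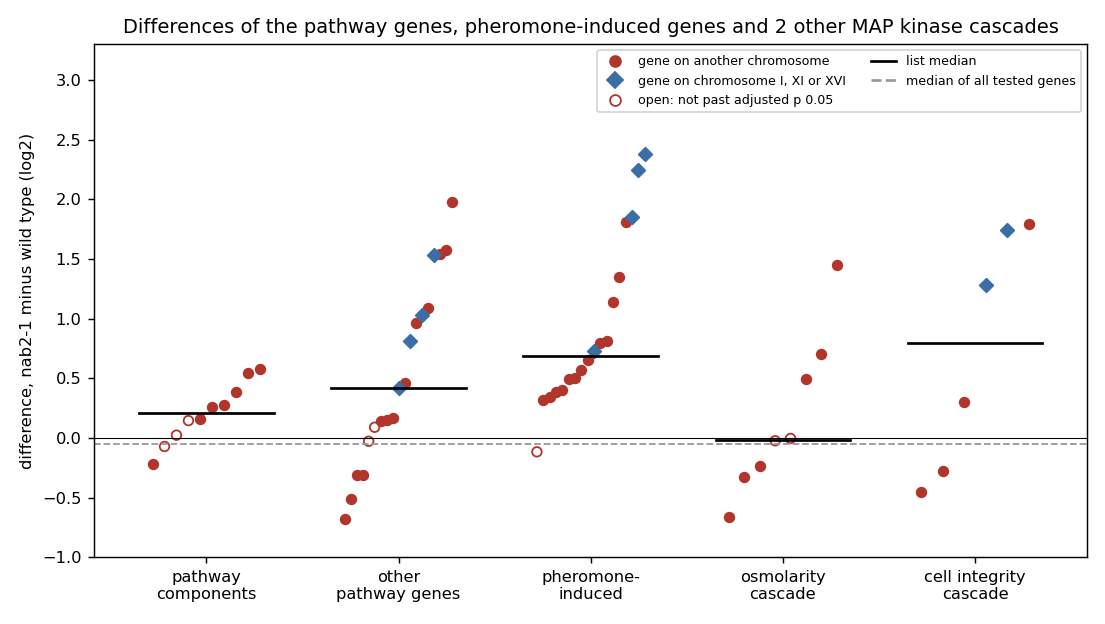
Differences, nab2-1 minus wild type (log2), for the 10 pathway components, 19 other pathway genes, 18 pheromone-induced genes and the genes of the osmolarity and cell integrity cascades; each point is a gene, diamonds mark genes on chromosomes I, XI and XVI, open symbols did not pass the threshold, black lines are list medians and the dashed line is the median of all tested genes. The pathway components span -0.22 to 0.58, a narrower range than each other list.

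Genes of 2 other MAP kinase cascades are given beside those of the pheromone pathway. Of 8 genes of the osmolarity cascade, 3 rose and 3 fell, where 30.2% of all genes rose and 37.2% fell, and the median difference was -0.01. All 8 lie off chromosomes I, XI and XVI. Over the genes of the other 13 chromosomes 19.8% rose and 43.2% fell, with a median of -0.11. SSK22, a kinase gene parallel to SSK2, rose most, by 1.45 ± 0.11 (adjusted p = 2.3e-05), followed by the response regulator gene SSK1 at 0.70 ± 0.07 (adjusted p = 7.0e-05). Of 6 genes of the cell integrity cascade, 4 rose and 2 fell, where 30.2% of all genes rose, 37.2% fell and 67.4% passed. The median of the 6 was 0.79, or 0.01 over the 4 genes that lie off chromosomes I, XI and XVI. Its MAP kinase gene SLT2 had signals of 12.95, 12.93 and 13.12 in nab2-1 and 11.21, 11.20 and 11.22 in the wild type. The rise of SLT2 was 1.79 ± 0.06 or 3.46-fold (adjusted p = 9.4e-07). Its transcription factor gene RLM1, on chromosome XVI, rose by 1.74 ± 0.10 and was at 0.99 relative to that chromosome. Scaled to the spiked controls the osmolarity list had 3 genes higher and 1 lower, and the integrity list 4 higher and 0 lower. On that scale 39.5% of all genes were higher and 13.9% lower. For the same layers of the pheromone pathway, the MAP kinase gene FUS3 was at 0.26 and the transcription factor gene STE12 at 0.54, as deposited. Differences between the lists were not tested.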

How the data were processed

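The deposited table holds 1 log2 value per probe set and array for 10928 probe sets, as the authors made it; GCOS, RMA and limma are named, without versions or roles, per the submitters' processing notes. Log2 values were used as deposited. Of the probe sets, 5498 matched 1 Saccharomyces cerevisiae gene of the RefSeq table of assembly R64, through the array's annotation; the highest-mean probe set of a gene was kept, which left 5449 genes. The nab2-1 and wild type arrays were fitted with limma 3.58.1 under R 4.3.3, using lmFit and eBayes with two-sided tests and Benjamini-Hochberg adjustment over all 5449 genes, and exact permutation tests used scipy 1.17.1. Coordinates are left out because no build is named for these arrays, and no sequence was used. With 3 arrays per group, precision is limited by their number.

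The pathway genes and all lists were chosen with earlier results of these data known. Named genes were the 10 components, the other pathway genes, the haploid-specific and mating-type genes, NAB2, up to 6 pheromone-induced genes and up to 2 genes of each other cascade with the largest changes past the threshold. Alternatives were other normalizations, scaling to 42 spiked control probe sets, chromosome medians, array weights, trend and robust variance, filters on dim genes, the replicate number as a block, all probe sets, another threshold and each array left out.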

Additional observations from a re-analysis of the deposited data

How the results depend on the processing

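Over 14 alternatives and the 6 settings that leave out an array each, STE4, STE11, FUS3, STE12 and SST2 stayed higher in nab2-1 and past the threshold wherever they were tested. Left-out arrays gave 5 to 7 pathway components higher and 1 lower, with medians of 0.19 to 0.24. The count of components lower, FAR1 as deposited, was 0 relative to chromosome medians and 0 scaled to the spiked controls with or without the trp probe sets, and the median over the components moved to 0.32, 0.46 and 0.48 in these 3 settings. The trp probe sets had signals of 2.94 to 3.80, under the level of 4.27 taken from probe sets without target. The setting without the trp probe sets was chosen after seeing the data. Scaling to the spiked controls gave 760 genes lower over all genes (622 without trp), 1 other pathway gene lower, 1 osmolarity gene lower and 0 integrity genes lower, each with or without trp; relative to chromosome medians 1 integrity gene was lower. Leaving out chromosomes I, XI and XVI left 907 genes higher and 2 integrity genes higher, since genes were removed. Without the dimmest 25% of genes, 12 other pathway genes remained with 11 called (8 higher), and 9 pheromone-induced genes with 9 higher.

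Signs changed for values that were near 0 or followed a chromosome. GPA1 was at 0.037 relative to chromosome medians and at 0.17 scaled to the spiked controls (0.20 without trp). FAR1 was at 0.029 scaled to the spiked controls (0.058 without trp). STE18 was at -0.039 with array weights, and from -0.056 to 0.076 with single arrays left out, below 0 without nab2-1 replicate 1 or wild type replicate 2. The difference of DIG2 was 0.029 under cyclic loess, 0.016 under quantile normalization, 0.082 relative to chromosome medians, 0.22 scaled to the spiked controls (0.25 without trp), and from -0.071 to 0.017 with single arrays left out, above 0 without wild type replicate 3. CIK1 was at 0.025 relative to chromosome medians and 0.13 scaled to the spiked controls (0.16 without trp), STE3 was at -0.34 and MF(ALPHA)1 at -0.53 relative to chromosome medians, and SAG1 was at 0.068 scaled to the spiked controls (0.10 without trp). The causes were not tested beyond the construction of each setting.

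With the replicate number as a block, 6 components were higher and 1 lower, and the number of genes past the threshold was 3514, against 3672 without it; among the other pathway genes, the calls of STE50 (adjusted p = 0.051) and TEC1 (adjusted p = 0.053) were lost, and no other call among the named genes changed. The numbers showed no clear pairing of the samples: deviations from group means correlated at -0.19, 0.19 and -0.14 for numbers 1, 2 and 3. Unmatched numbers gave -0.24 to 0.27, and with 3 arrays per group this check cannot decide whether the samples were paired.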
